A study of Homo sapiens and Mus musculus with 7 samples.

Results

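The genes described here encode structural RNAs that lack a poly-A tail. They are RMRP, RPPH1, RN7SK, RN7SL1, BCYRN1, RNU2-2, SNORD3A, SNORD3C, SNORA73B and RN5-8S1, 10 of the 14946 gene symbols in a table of expression in HEL cells, and they were found there by symbol. They were chosen by their measured levels, which stood high in hemin-treated KAP1 knockdown cells, so their levels and ratios are given as a description, without a test. HEL is a human erythroleukaemia line, and KAP1, the product of TRIM28, helps KRAB zinc finger proteins to silence their targets. The groups were KAP1 knockdown cells activated with hemin at 50 µM for 5 days, knockdown cells that were not activated, control cells with the same hemin treatment and control cells that were not activated. The control columns are headed Ctrl and were taken as the samples labelled KAP1 WT, the other genotype among the HEL samples. How KAP1 was knocked down, and whether the knockdown cells were a clone or a pool, the sources used here do not say. Each group was 1 library, so no difference below has a replicate check and none carries a p-value.

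Most RNA in a cell by mass is not messenger RNA. The RNAs described here are parts of enzymes and particles: they are made by RNA polymerases I, II or III, are trimmed at their 3′ ends instead of being given a long poly-A tail, and act bound to proteins. RMRP and RPPH1 are the RNA parts of RNase MRP and RNase P, which process ribosomal and transfer RNA precursors. RN7SK holds the elongation factor P-TEFb inactive, RN7SL1 is the RNA of the signal recognition particle that guides secreted proteins to the endoplasmic reticulum, and BCYRN1 is a short RNA related to Alu repeats. U2 RNA recognises the branch point in splicing, SNORD3A and SNORD3C are copies of U3, which is needed to cut the ribosomal RNA precursor, SNORA73B is a box H/ACA small nucleolar RNA, and RN5-8S1 is the 5.8S ribosomal RNA. The libraries were made from total RNA with the TruSeq RNA Sample Preparation Kit v2, a kit that captures RNA by its poly-A tail, so RNAs of this kind reach the library only in part and their levels here are not their cellular abundance.

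Counted over 1 transcript per gene, there were 42105288 reads in the knockdown library with hemin, 24025542 in the knockdown library without hemin, 37961681 in the control library with hemin and 34222012 in the control library without hemin. Levels are in scaled TPM, that is, reads over transcript length brought to a common depth. The targeted gene TRIM28 was at 190 scaled TPM in the knockdown library with hemin and 317 in that without, against 400 in the control library with hemin and 421 in that without. Its row is deposited as whole numbers of unknown origin, so it checks the labels only weakly. All 12 of the erythroid and megakaryocytic genes set as HEL markers, the gamma globin genes among them, were at 5 scaled TPM or more in every library. The T cell and hepatocyte marker lists summed to at most 2.95 scaled TPM in any library, the epithelial list to at most 15.3 and the B cell list, of which only CD79A was in the table, to at most 28.002, while none of the fibroblast markers was in the table.

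The 10 symbols had 12 rows and 11 transcripts. The length behind each row could be read from the step between its values and ran from 156 to 341 bases, and for 8 of the 11 transcripts it equalled the length in RefSeq (GRCh38.p14 table). The accession behind the row named RNU2-2 (NR_002716) belongs in RefSeq to RNU2-1, another U2 gene, so the row is called U2 below. Of the 2 rows named RN7SL1, the one with the higher values (NR_027260), which stands for RN7SL1 here, belongs to the near-identical gene RN7SL2. How reads shared between copies of U2, U3, the signal recognition particle RNA and 5.8S rRNA, or between BCYRN1 and Alu repeats, were assigned is not stated in those sources, so which copy a value belongs to is uncertain.

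All 10 RNAs had their highest level in the knockdown library with hemin. Among the 11162 genes with at least 5 scaled TPM in some library, 21.2% had their highest level there, 31.8% in the knockdown library without hemin, 26.5% in the control library with hemin and 20.5% in that without. In that library 24862 reads lay on the 10 RNAs, or 0.0590% of its reads (95% Clopper-Pearson interval 0.0583 to 0.0598%). The knockdown library without hemin had 1377 such reads, or 0.00573% (0.00543 to 0.00604%), the control library with hemin 8027, or 0.0211% (0.0207 to 0.0216%), and the control library without hemin 3642, or 0.0106% (0.0103 to 0.0110%). Intervals here and below cover counting error only: the reads carry no molecular identifiers and so are not independent molecules. RN7SL1 and RN5-8S1 supplied between 83.4 and 92.0% of these reads, and the other 8 RNAs were much scarcer. The samples are bulk RNA, so fewer cells holding an RNA and less of it per cell cannot be told apart.

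**Figure D1:**
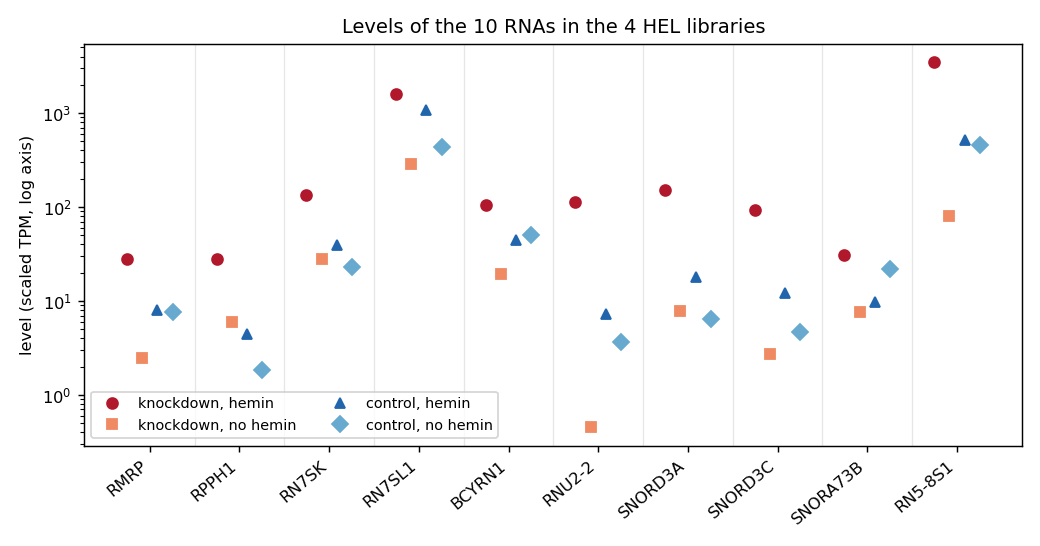
Level of each of the 10 RNAs in scaled TPM (log axis) in the 4 HEL libraries, 1 point per library; U2 is drawn under its listed name RNU2-2. The knockdown library with hemin (red circles) is highest for all 10, while the knockdown library without hemin (orange squares) is lowest for 7 and the control library without hemin (light blue diamonds) for 3. The share of all genes lowest in each library was not computed.

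The catalytic RNAs of RNase MRP and RNase P are related in structure and share most of their proteins. RMRP had 163 reads in the knockdown library with hemin and 8 in that without, against 40 in the control library with hemin and 34 in that without. These are levels of 27.99, 2.46, 7.93 and 7.69 scaled TPM in the same order. RPPH1 had 199 and 24 reads in the knockdown libraries with and without hemin, against 28 and 10 in the control libraries with and without hemin, or 27.8, 5.99, 4.51 and 1.84 scaled TPM. With hemin both RNAs were higher in knockdown than in control cells, at log2 ratios of 1.76 for RMRP (95% counting interval 1.31 to 2.36) and 2.50 for RPPH1 (2.05 to 3.25). Without hemin they went opposite ways: RMRP was lower in knockdown cells, at -1.47 (-2.97 to -0.51), and RPPH1 higher, at 1.47 (0.59 to 2.93). Per length, RMRP was at 1.01 times the level of RPPH1 in the knockdown library with hemin and 0.410 times in that without, against 1.76 times in the control library with hemin and 4.19 times in that without. Log2 ratios were taken after adding 0.5 to each scaled TPM, which understates differences of low genes, while the intervals come from the reads without this addition.

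RN7SK had 948 reads in the knockdown library with hemin and 109 in that without, against 237 in the control library with hemin and 121 in that without. Its levels were 136, 27.95, 39.2 and 22.8 scaled TPM in that order. It was 3.44-fold higher in knockdown than in control cells with hemin, a log2 ratio of 1.78 (1.59 to 2.00). Without hemin the log2 ratio was 0.29 and its interval (-0.10 to 0.68) included 0.

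RN7SL1 was the second most abundant of the 10 in the knockdown library with hemin and the most abundant in the control library with hemin. It had 10044 reads in the knockdown library with hemin and 1001 in that without, against 5934 in the control library with hemin and 2087 in that without, or 1598, 285, 1089 and 438 scaled TPM. Knockdown over control, its log2 ratio was 0.55 with hemin (0.51 to 0.60) and -0.62 without (-0.73 to -0.51), both short of 2-fold. The other row of that name (NR_002715) had 9398 and 940 reads in the knockdown libraries with and without hemin, against 5135 and 1920 in the control libraries with and without hemin. The higher row held 1.06 to 1.16 times the reads of the other in the 4 libraries.

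BCYRN1 had 443 reads in the knockdown library with hemin and 45 in that without, against 161 in the control library with hemin and 159 in that without. At 105 and 19.2 scaled TPM in the knockdown libraries with and without hemin, against 44.2 and 49.8 in the controls with and without, it stood both above and below its controls. Knockdown over control, the log2 ratio was 1.24 with hemin (0.99 to 1.52) and -1.36 without (-1.89 to -0.89).

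U2 had the widest span. It had 449 reads in the knockdown library with hemin and 1 in that without, against 25 in the control library with hemin and 11 in that without. Its levels were 114 scaled TPM in the knockdown library with hemin and 0.453 in that without, against 7.30 and 3.67 in the control libraries with and without hemin. With hemin its log2 ratio of knockdown over control was 3.87 (3.38 to 4.60), the third highest of 10904 genes. Without hemin it was below the 5 scaled TPM that a comparison required, and the reads alone gave a log2 ratio of -3.02 (-8.45 to -0.24), which rests on a single read.

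SNORD3A had 689 reads in the knockdown library with hemin and 20 in that without, against 72 in the control library with hemin and 22 in that without, or 151, 7.85, 18.2 and 6.35 scaled TPM. SNORD3C had 425 and 7 reads in the knockdown libraries with and without hemin, against 48 and 16 in the controls with and without, or 93.2, 2.75, 12.1 and 4.62 scaled TPM. With hemin the log2 ratios of knockdown over control were 3.02 (2.70 to 3.42) and 2.89 (2.51 to 3.40). Without hemin SNORD3A had 0.28, with an interval of -0.65 to 1.25 that includes 0, and SNORD3C was below 5 scaled TPM in both libraries. Other U3 rows, listed under clone names and looked up by accession after the values were seen, had the same pattern. SNORD3D had 339 reads in the knockdown library with hemin and 10 in that without, against 40 and 11 in the control libraries with and without hemin. SNORD3B-1 and SNORD3B-2 held identical reads in every library, 398 and 12 in the knockdown libraries with and without hemin, against 46 and 13 in the controls with and without.

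SNORA73B, which is cut from an intron of SNHG3, had 103 reads in the knockdown library with hemin and 14 in that without, against 28 in the control library with hemin and 55 in that without. Its levels were 31.0 and 7.54 scaled TPM in the knockdown libraries with and without hemin, against 9.73 and 21.8 in the controls with and without. Knockdown over control, the log2 ratio was 1.62 with hemin (1.06 to 2.33) and -1.47 without (-2.49 to -0.67). The spliced host transcript SNHG3 spanned a narrower range, with 155 and 96.1 scaled TPM in the knockdown libraries with and without hemin, against 134 and 145 in the controls with and without. SNORA73A, a second RNA from the same host, had 117 and 35 reads in the knockdown libraries with and without hemin, against 48 and 96 in the controls with and without. At common depth these are 26.9 and 14.4 scaled TPM in the knockdown libraries with and without hemin, against 12.7 and 29.1 in the controls with and without. SNORA73A was thus highest in the control library without hemin and lowest in that with hemin, unlike SNORA73B. Its levels in the knockdown libraries with and without hemin were close to these, and no counting interval was computed for it. In each comparison its log2 ratio had the same sign as that of SNORA73B. Knockdown over control, SNORA73A had 1.05 with hemin and -0.99 without. Hemin over no hemin, it had 0.88 in knockdown cells and -1.16 in control cells, against 1.97 and -1.13 for SNORA73B.

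RN5-8S1 was the most abundant of the 10 in the knockdown library with hemin, where it ranked 17 of 14919 genes by level. It had 11399 reads there and 148 in the knockdown library without hemin, against 1454 in the control library with hemin and 1127 in that without, or 3476, 80.8, 512 and 453 scaled TPM. Knockdown over control, its log2 ratio was 2.76 with hemin (2.69 to 2.84) and -2.48 without (-2.74 to -2.24). In ribosomes 5.8S stands beside the 18S and 28S rRNAs, which are cut from the same precursor, and in these libraries the 3 had different profiles. RN18S1 was at 6094 scaled TPM in the knockdown library with hemin and 2004 in that without, against 3375 in the control library with hemin and 2395 in that without. RN28S1 was at 5107 and 2446 scaled TPM in the knockdown libraries with and without hemin, against 5544 and 2980 in the controls with and without. Per length, 5.8S was thus at 0.681 times the level of 28S in the knockdown library with hemin and 0.0330 times in that without, against 0.0923 times in the control library with hemin and 0.152 times in that without.

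**Figure D2:**
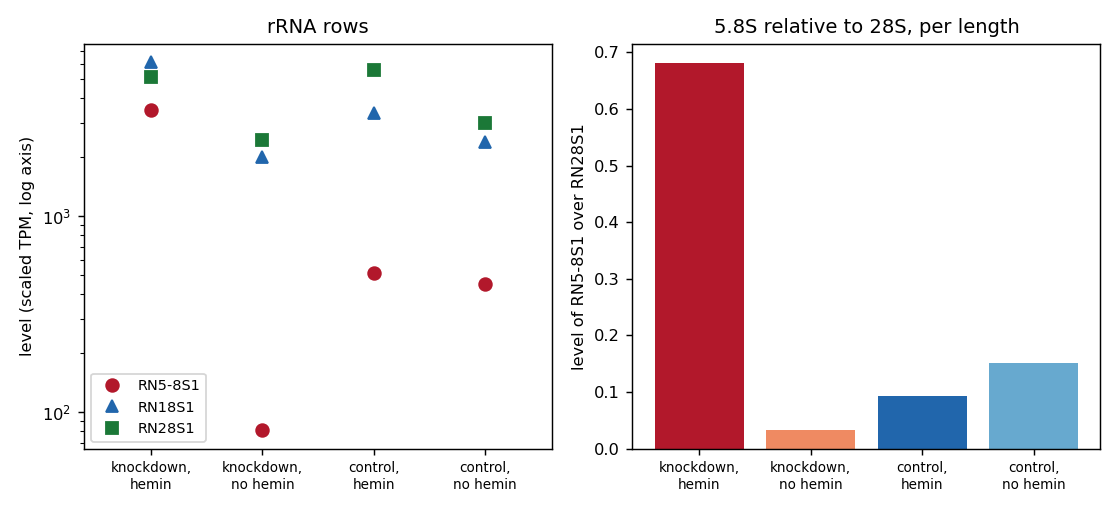
Left, levels of the 5.8S (RN5-8S1), 18S (RN18S1) and 28S (RN28S1) rows in scaled TPM (log axis) in the 4 libraries, 1 point per library; right, the level of 5.8S over that of 28S, as bars from 0. The ratio is 0.681 in the knockdown library with hemin and at most 0.152 in the other 3.

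The ratios of knockdown over control were set side by side for the libraries with and without hemin. With hemin, 9 of the 10 were at least 2-fold higher in knockdown cells and 0 were at least 2-fold lower, where 6% of all genes that reached 5 scaled TPM (the floor) were 2-fold higher and 4.13% 2-fold lower. RN7SL1 was the exception. The median log2 ratio of the 10 was 2.14, against 0.01 over the 10904 genes compared. Without hemin, 8 of the 10 reached the floor, and 1 of them (RPPH1) was at least 2-fold higher and 4 (RMRP, BCYRN1, SNORA73B and RN5-8S1) at least 2-fold lower. Of all 10878 genes compared there, 6.7% were higher and 6.44% lower by that much. The median of the 8 was -0.99, against 0.03 over all genes. The balance of all genes depended on the scaling: with TMM factors 654 were higher and 450 lower with hemin and 729 higher and 700 lower without, and with plain totals in their place 823 were higher and 363 lower with hemin and 959 higher and 521 lower without. Since the RNAs were chosen for their height in the knockdown library with hemin, nothing is read from these shares.

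Hemin was compared in the same way within each genotype. In knockdown cells all 10 RNAs were at least 2-fold higher with hemin than without, where 2.31% of 10828 genes were, and 1.71% were lower by that much. Their median log2 ratio was 2.88, with the lowest at 1.97 (SNORA73B) and the highest at 6.90 (U2, counting interval 5.49 to 13.28). RN5-8S1 had 5.42 (5.19 to 5.67), SNORD3C 4.85 (4.03 to 6.41), SNORD3A 4.18 (3.63 to 4.99) and RMRP 3.27 (2.50 to 4.74). U2, RN5-8S1 and SNORD3C were the 3 highest ratios of all genes compared, and SNORA73B, the lowest of the 10, ranked 25 from the top. In control cells 9 of the 10 reached the floor, of which 3 were at least 2-fold higher with hemin (RN7SL1, SNORD3A and SNORD3C) and 1 at least 2-fold lower (SNORA73B). The shares over 10799 genes were 2.6% higher and 2.59% lower. There SNORD3A had a log2 ratio of 1.45 (0.81 to 2.28), RN7SL1 1.32 (1.24 to 1.39), SNORD3C 1.30 (0.55 to 2.31) and SNORA73B -1.13 (-1.88 to -0.48). RMRP had 0.04 and BCYRN1 -0.17, and both intervals included 0. The comparisons share libraries: the knockdown library with hemin enters the knockdown ratio with hemin and the hemin ratio in knockdown cells, so these ratios are not independent of each other.

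**Figure D3:**
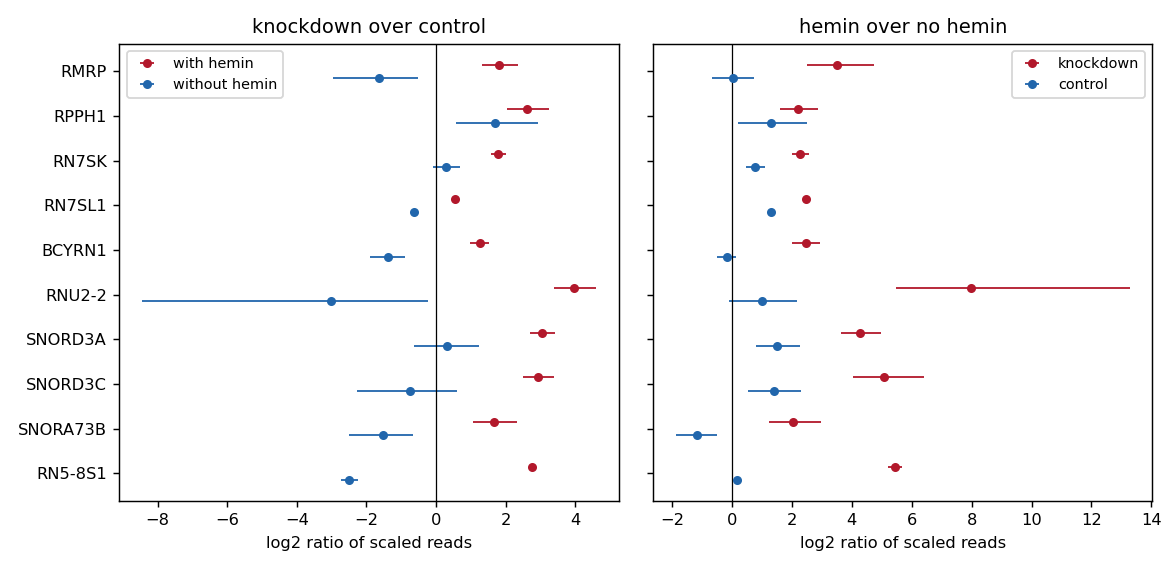
Log2 ratios of scaled reads for the 10 RNAs, knockdown over control (left; red with hemin, blue without) and hemin over no hemin (right; red in knockdown cells, blue in control cells). Points are ratios of 2 libraries without a pseudocount and bars are 95% counting intervals; the red points lie right of 0 for all 10 RNAs in both panels, and the blue points lie on both sides.

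The difference between the knockdown ratios with and without hemin uses each library once. It was above 0 for all 10 RNAs and at least 1 on the log2 scale for all of them, where 3.37% of 11162 genes reached 1 and 2.87% reached -1. Its median was 2.91, against 0.01 over all genes. It was highest for U2, for which the reads alone gave 6.98 (counting interval 4.05 to 12.41). It was 5.24 for RN5-8S1 (4.99 to 5.52), 3.55 for SNORD3C (2.23 to 5.27), 3.23 for RMRP (2.17 to 4.88) and 3.10 for SNORA73B (2.09 to 4.35). It was smallest for RPPH1, at 1.02, and the interval of that RNA (-0.47 to 2.21) included 0. RN7SL1 had 1.17 (1.05 to 1.29), with the narrowest interval because it had the most reads.

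Ordered by the polymerase that makes them, the RNAs spanned different ranges in knockdown cells. The RNAs of polymerase III (RMRP, RPPH1, RN7SK, RN7SL1 and BCYRN1) had log2 ratios of hemin over no hemin between 2.12 and 3.27. Those made by polymerase II from their own promoters (U2, SNORD3A and SNORD3C) lay between 4.18 and 6.90, and 5.8S, from polymerase I, had 5.42. SNORA73B, which polymerase II makes as part of the SNHG3 transcript, had 1.97, below all of the polymerase III RNAs. Knockdown over control with hemin, the same groups had 0.55 to 2.50, 2.89 to 3.87 and 2.76, and SNORA73B had 1.62. SNORD3A and SNORD3C may share reads, so the second group is not made of 3 separate values, and whether the groups differ was not tested.

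Other RNAs without a poly-A tail were set beside the 10. Outside the 10, the table held 26 symbols of small nucleolar, Cajal body, telomerase and ribosomal RNAs, matched by name. The row named SCARNA11 had a recovered length of 2196 bases and no RefSeq type. It may not be the small RNA of that name, and it was counted with the rest. With hemin, 16 of the 26 symbols reached the floor. Knockdown over control, 0 of the 16 were 2-fold higher and 2 were lower, SNORA27 at -1.81 and SNORA48 at -1.06, with a median of -0.33. Without hemin, 1 of 17 was at least 2-fold higher and 7 were lower, with a median of -0.82. Small nucleolar RNAs were also found by RefSeq type, which adds those filed under a host's symbol, with the U3 rows left out. Knockdown over control with hemin, 1 of 14 was at least 2-fold higher, SNORA73A at 1.05, and 2 were lower, with a median of -0.44. Without hemin this set had 1 of 15 higher and 8 lower, with a median of -1.11. The U3 rows outside the 10 had higher log2 ratios with hemin, 2.82 for SNORD3D and 2.85 for SNORD3B-1 and for SNORD3B-2. For hemin over no hemin in knockdown cells, 15 of the 26 symbols reached the floor. Of these, 7 were at least 2-fold higher and 1 lower, with a median of 0.92. The set by RefSeq type, again without U3, had 7 of 13 higher and 1 lower, with a median of 1.21. Most of the 26 are small nucleolar RNAs cut from introns, with few reads. SNORA61 and SNORD22 were picked as examples after their values were seen: SNORA61 had 53 and 6 in the knockdown libraries with and without hemin, against 50 and 47 in the controls with and without, and SNORD22 had 27 and 2 in the knockdown libraries, against 29 and 27 in the controls. In both, the knockdown library without hemin stood low and that with hemin was level with the controls. SNORA40, in the set by RefSeq type, differed from these examples. It had 79 and 3 reads in the knockdown libraries with and without hemin, against 42 and 21 in the controls with and without. Its level was highest in the knockdown library with hemin, and its log2 ratio of hemin over no hemin in knockdown cells was 3.58. Replication-dependent histone genes, whose messengers typically end in a stem-loop in place of a tail, were found by symbol. They had a median log2 ratio of 0.13 for hemin over no hemin in knockdown cells, and 0 of 30 at the floor were 2-fold apart. Knockdown over control they had medians of 0.95 with hemin and 1.74 without, with 14 of 30 and 25 of 29 at least 2-fold higher. The end of each histone transcript was not checked. The list holds the transcribed pseudogenes HIST2H2BA and HIST2H2BD. Genes with identical reads, such as HIST2H2AA3 and HIST2H2AA4, were counted separately. The nuclear RNA NEAT1 was at 507 and 247 scaled TPM in the knockdown libraries with and without hemin, against 445 and 430 in the controls with and without, and MALAT1 was at 55.1 and 32.2, against 75.4 and 50.4.

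**Figure D4:**
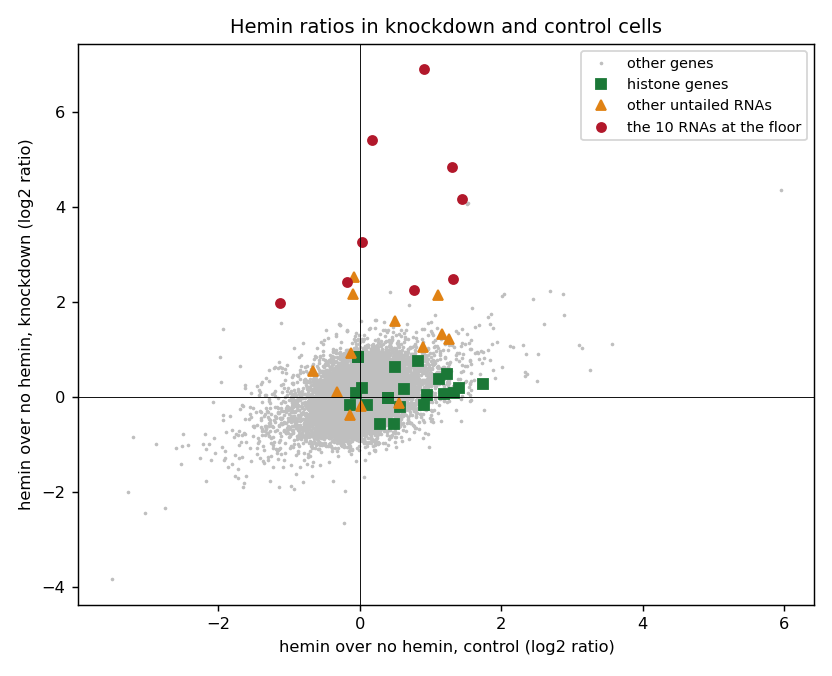
Log2 ratio of hemin over no hemin in control cells (x axis) and knockdown cells (y axis), 1 point per gene at the floor of 5 scaled TPM in both comparisons; red circles are 9 of the 10 RNAs (RPPH1 is below the floor in control cells), orange triangles other untailed RNAs, green squares histone genes and grey dots all other genes. The red circles lie between 1.97 and 6.90 on the y axis, above the green squares. Of the orange triangles, SNORD22 at 2.53, SNORA61 at 2.17 and SNORD10 at 2.14 lie within that range. Other triangles lie below it, RN18S1 at 1.60 among them.

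Coding genes were also grouped by transcript length. Coding transcripts of at most 400 bases had a median log2 ratio of -0.04 for hemin over no hemin in knockdown cells (33 genes) and 0.30 for knockdown over control with hemin (34 genes). Those over 1600 bases had 0.04 and -0.02. With histone genes left out, the class of at most 400 bases had -0.13 (28 genes) and 0.03 (29 genes) in the same 2 comparisons.

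The proteins that bind these RNAs, and the machinery that makes them, were described in the same way. Knockdown over control with hemin, 0 of 10 RNase P and MRP proteins at the floor, 0 of 8 signal recognition particle genes, 0 of 18 U2 particle genes and 0 of 9 small nucleolar particle genes were 2-fold apart, with medians between 0.12 and 0.39. In that comparison POP1, the largest protein of RNase P and MRP, had 0.75 and SRP14 had 0.52. SNRPG, an Sm ring protein, had 0.81 and NOP56, a core protein of box C/D particles, 0.69. Of 7 genes of the 7SK particle and P-TEFb 1 was 2-fold lower, HEXIM1, which inhibits P-TEFb when bound to 7SK, at -1.04. Among 32 genes of RNA polymerase III and its factors 1 was at least 2-fold higher, GTF3C6 at 1.29, and 1 lower, BRF2, the factor used at promoters of the RN7SK and RPPH1 type, at -1.52. BRF2 was at 36.9 and 23.7 scaled TPM in the knockdown libraries with and without hemin, against 107 and 26.1 in the controls with and without. Integrator, which cuts the 3′ ends of U RNAs, had 0 of 12 genes 2-fold apart with a median of -0.11, RNA polymerase I and its factors 0 of 12 with 0.13, and the genes of small RNA binding and end processing 0 of 9 with 0.17, SSB, the La protein, being at 0.49. Without hemin, knockdown over control, 2 of the 18 U2 particle genes were at least 2-fold higher, SNRPG at 1.54 and SNRPF at 1.21, as were 3 of the 32 polymerase III genes, POLR3K at 1.23, POLR3GL at 1.16 and GTF3C6 at 1.11. With hemin, spliced small nucleolar RNA host transcripts had a median of -1.03, with 6 of 11 at least 2-fold lower, among them GAS5 at -2.08 and SNHG7 at -2.04.

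Genes whose levels followed the 4 libraries most like the 10 RNAs were ranked by the root mean square difference of their centred log2 levels from the median profile of the 10. Among 10324 other genes at the floor in all 4 comparisons, the nearest was RN18S1, at 0.59, followed by CD274 at 0.61, CR1 at 0.61, MGST1 at 0.63, C4orf33 at 0.65, HBG1 at 0.65, HBG2 at 0.66 and CTBS at 0.68. The 10 RNAs themselves lay between 0.35 (RN7SK) and 1.34 (U2). The profile has 4 points. For hemin over no hemin in knockdown cells, these genes had smaller log2 ratios than the median of the 10 RNAs, 2.88. RN18S1 had 1.60 and CD274, which encodes an immune checkpoint ligand, 1.62. The lowest of the 10 RNAs had 1.97. The fetal globin genes HBG1 and HBG2 were also about as high with hemin in control cells, at log2 ratios of 2.01 and 2.04, against 2.13 and 2.18 in knockdown cells.

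The 18S and 28S rows given above were set beside the result. RN18S1, which has no poly-A tail either, was highest in the knockdown library with hemin and lowest in that without, as were 7 of the 10 RNAs, while RN28S1 was highest in the control library with hemin. How many of all genes had that order was not computed. The amount of untailed RNA that passed the capture step can differ between libraries. It and the cells' content of these RNAs cannot be told apart with 1 library per group, and the part of each in the differences was not tested.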

How the data were processed

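For the 4 HEL libraries the authors deposited RPKM values, so named per the file headers, with a row for each RefSeq transcript. The submitters' processing notes name Bowtie and hg19, without a version or role. Libraries were made from 250 ng of total RNA. The deposited values still carried depth: within a row they were whole multiples of a step after division by a library factor between 1 and 1.10. Whole reads were recovered for 24533 of 24538 rows (tolerance 0.0002 reads plus a relative 4e-09), and 988 rows whose lengths were not whole (tolerance 0.01 bases) were multiplied up by a common factor. The remaining 5 rows hold whole numbers. Each gene was represented by the transcript with the highest mean value, giving 14919 genes. Scaled TPM are values divided by the value of a read and by the library's reads times a TMM factor (trims 0.3 and 0.05), with a mean library sum of 1000000. Ratios used a pseudocount of 0.5, and genes entered where the higher library reached 5. Called means 2-fold. Intervals are exact conditional binomial (95%). Scaling and intervals were tried on simulated reads drawn independently from Poisson distributions (Python 3.11.15, scipy 1.17.1). The intervals assume such reads, so the simulation cannot show how well they cover real reads or the spread between samples. With 1 library per group no test was made. The design had assumed depth-scaled RPKM. The named genes were the 10 RNAs, the 8 nearest profiles and genes from the lists. The plan was to name the 2 genes furthest from 0 in each list, knockdown over control with hemin. It was followed in part. Some of those genes, such as RPP25L and XRN1, are not printed. Others, such as SNRPF, POLR3K, POLR3GL, SNORA40, SNORA61 and SNORD22, were added outside the plan. The members and lists were chosen with earlier results of these data known. The 3 mouse ChIP-seq libraries were not used here. No sequence of these RNAs was at hand, so none is printed.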

Additional observations from a re-analysis of the deposited data

Results flagged for a closer look

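For 5 of the 8 RNAs at the floor of 5 scaled TPM in both activation states, the knockdown ratio lay on opposite sides of 0 with and without hemin, with both counting intervals clear of 0. U2, below the floor without hemin, had intervals of the same kind, 3.38 to 4.60 with hemin and -8.45 to -0.24 without, the second resting on 1 read. This difference between states was not tested, since each group was 1 library. The share of all genes with such opposite intervals was not computed. The RNAs were also chosen for their height in the knockdown library with hemin, so nothing is read from the count. RMRP had log2 ratios of 1.76 with hemin and -1.47 without, RN7SL1 0.55 with and -0.62 without, RN5-8S1 2.76 with and -2.48 without, SNORA73B 1.62 with and -1.47 without, and BCYRN1 1.24 with and -1.36 without. For SNORA73B the hemin ratio was also on opposite sides, at 1.97 in knockdown cells and -1.13 in control cells, again untested. Opposite ratios in the 2 states go with the knockdown library without hemin standing lowest, as it did for 7 of the 10 RNAs. The share of all genes lowest in that library was not computed.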

How the results depend on the processing

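Every ratio rests on 1 library per group, and U2 on 1 read in the knockdown library without hemin. Of 472 recomputed values, 442 stayed within their counting interval (for a median, the median bounds of its RNAs) or, for counts, within 1.5 times. No ratio of 2-fold or more changed sign; below that, knockdown over control without hemin became -0.28 for RN7SK and -0.25 for SNORD3A with the deposited values. The ratios of single RNAs moved beyond their intervals 17 times, 14 of them with unscaled deposited values and 3 with plain totals of reads over length. The deposited values, which still hold depth, shifted the median of all genes by -0.58 for knockdown over control without hemin and by 0.95 for hemin in knockdown cells; they gave the RNAs a median of -1.92 and 0 calls above 2-fold in the first of these, and 0 calls below in the hemin comparison of control cells. All genes then split into 1106 higher and 298 lower for knockdown over control with hemin, 146 and 2449 without, and 5038 and 12 for hemin in knockdown cells and 456 and 193 in control cells. Plain totals shifted all genes, knockdown over control, by 0.10 with hemin and 0.11 without, and put the share of higher among all calls at 69.4% with hemin and 64.8% without, against 59.2 and 51.0% with TMM. With a floor of 20, knockdown over control without hemin gave a median of -1.36 and 0 higher, and hemin in control cells 1 higher. Without SNORD3A, SNORD3C, RN7SL1, RN5-8S1 and BCYRN1, 5 RNAs remained, U2 among them although it has copies too: knockdown over control gave 2 lower without hemin, and a median of 1.78 with 5 higher with hemin, while hemin gave a median of 2.26 with 5 higher in knockdown cells and 0 higher in control cells. With the transcript with the most reads, 0.0581% of reads in the knockdown library with hemin lay on the RNAs. The other RN7SL1 row, tried after seeing the data, left each median and count the same by these limits. The cause of these movements was not tested beyond what each setting changes by construction. No paired analysis was possible because each group is 1 library and the result comes from no test.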
